A study of Mus musculus with 16 samples.

Results

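Transcripts of 34 genes of spiral ganglion neurons were examined in RNA-seq libraries of the neonatal mouse cochlea, out of 47729 genes with values. The members were the rows carrying the symbols of a named list of neuron genes, and all 34 were found and passed the filter on low values. There were 16 libraries, 4 in each of 4 groups, from 8 pools of cochleae at P4. Control mice carried GLAST-CreERT/+ and Rpl22-HA/+, and DTR mice carried Lgr5-DTR-EGFP/+ in addition, which puts the diphtheria toxin receptor in cells that express Lgr5. Diphtheria toxin and tamoxifen were given to both genotypes at P1 according to the study's methods, whereas the sample labels list the controls as without treatment and the DTR mice as treated. Each pool held 8 cochleae of 4 mice and gave an input library, from 5% of the homogenate, and an IP library, from the ribosomes that an antibody to the HA tag pulled out of the other 95%. Tagged ribosomes form where the GLAST promoter (Slc1a3) has driven Cre, in the inner phalangeal cells and the greater epithelial ridge (GER) as the study describes it, so the IP was designed to draw on those epithelial cells and not on neurons. The ganglia had been taken off at dissection, with the lateral wall and the membrane of Reissner, so the neurons' cell bodies were not meant to be in the samples.

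Spiral ganglion neurons carry sound information from the hair cells to the brainstem. Their cell bodies lie in the ganglion beside the cochlear duct. Their peripheral processes run to the bases of the hair cells, sheathed by Schwann cells for part of the way. They release glutamate, and their RNA includes the messages for neurofilaments, growth-cone and microtubule proteins, the vesicle fusion machinery and the channels of fast firing. Most of the 34 genes are active in neurons in general and do not by themselves mark the spiral ganglion. In bulk tissue, fewer neurons and less RNA per neuron cannot be told apart.

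Counted reads per library ranged from 28089836 to 41966310, so that 3 reads were worth between 0.0715 and 0.107 CPM, the count of a gene scaled to one common library size. The fewest reads behind any value of a member were 9, for Prph and Slc17a6 in IP libraries. As a check of the labels, Lgr5, the gene that carries the receptor, fell from 63.3 ± 3.0 to 15.9 ± 3.7 CPM in input (SD, n = 4 each). Slc1a3, whose promoter drives Cre, stood at 281 ± 14 CPM in control input and 236 ± 22 CPM in control IP, a difference that did not pass the test (adjusted p = 0.1 in limma).

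All 34 members were detected in every control input library. Their mean levels ran from 1.63 CPM for Prph, the intermediate filament of type II neurons, to 190.5 CPM for Syt1, a calcium sensor of synaptic vesicles, with a median of 28.9 CPM over the 34 members. Per kilobase of exon the highest level in control input was that of Uchl1, a deubiquitinating enzyme abundant in neurons, at 78.7 CPM per kb. Stmn3, a stathmin that binds tubulin, followed at 64.7 CPM per kb, the neurofilament light chain Nefl at 47.2 and the complexin Cplx1 at 43.4 CPM per kb. At the other end were the potassium channel Kcnc1 at 0.402 CPM per kb and the RNA-binding protein Elavl3 at 0.43 CPM per kb. Of the 34 members, 8 share exon sequence with another gene in GENCODE M21. Nefl and Nefm overlap each other on opposite strands of chromosome 14, and Ina, Map2, Syn1, Syn2, Elavl3 and Uchl1 overlap other genes. Since the strand setting of the counting was not given in the sources used here, part of their reads may belong to the partner.

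REST is a repressor of neuronal genes outside the nervous system. The stretch of DNA for which it is best known was looked for in the RefSeq promoter windows (GRCm38.p6, 250 bases before to 50 after each start). The search was made after the members were seen to rise and fall together between pools, and it does not bear on those differences. The letters searched, on both strands, were GCACC, any 2 letters, GG, any 1 letter, and CAG, the core of the element named RE1. The 24 members with an entry had 34 windows, of which 2 held a match, and 81 of all 32851 windows did, or 0.247%. The matches are shown with 20 bases on either side, read along the gene, and the capitals mark the matched letters. The site of Syn1, which codes for a synapsin that tethers vesicles, was on the minus strand at chrX:20921114-20921166, and that of the calcium sensor gene Syt2 was on the plus strand at chr1:134646472-134646524.
Syn1: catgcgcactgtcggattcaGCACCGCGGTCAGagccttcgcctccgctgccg
Syt2: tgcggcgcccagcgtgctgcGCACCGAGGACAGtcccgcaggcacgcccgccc
No measurement of binding was made, and a match is a description of the letters only.

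Pools of the same group differed widely in these genes. In every group the members summed to more in replicates 1 and 2 than in replicates 3 and 4. In control input the 34 members added up to 2298, 2084, 949.6 and 897 CPM in replicates 1 to 4, and in DTR input to 1998, 1333, 795 and 528 CPM. The control IP libraries gave 1216, 1217, 655 and 637 CPM, and the DTR IP libraries 1144, 784, 517 and 390.4 CPM. The highest pool exceeded the lowest by 2.56-fold in control input and 3.79-fold in DTR input.

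Taken gene by gene, 28 of the 34 members were higher in both of replicates 1 and 2 than in either of replicates 3 and 4 in each of the 4 groups, a pattern noticed in these values and shown by 3.17% of all 16994 tested genes. Among control pools alone it held for 32 members in input and 31 in the IP, against 22.0% and 30.6% of tested genes. Among DTR pools it held for 32 in input and 30 in the IP, against 21.3% and 24.5%. The exceptions were Prph, Celf4, Uchl1, Thy1, Syt1 and Kcna1. In a group, the highest library exceeded the lowest by a median over members of 3.99-fold (control input), 4.28-fold (control IP), 6.23-fold (DTR input) or 5.16-fold (DTR IP). The median tested gene gave 1.34, 1.47, 1.41 and 1.52. The widest were Slc17a7, whose product loads glutamate into vesicles, at 20.4-fold in DTR input, and Elavl4, a neuronal RNA-binding protein gene, at 17.7-fold in DTR IP. At the narrow end Syt1 differed by 1.09-fold between the highest and lowest control input.

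**Figure D1:**
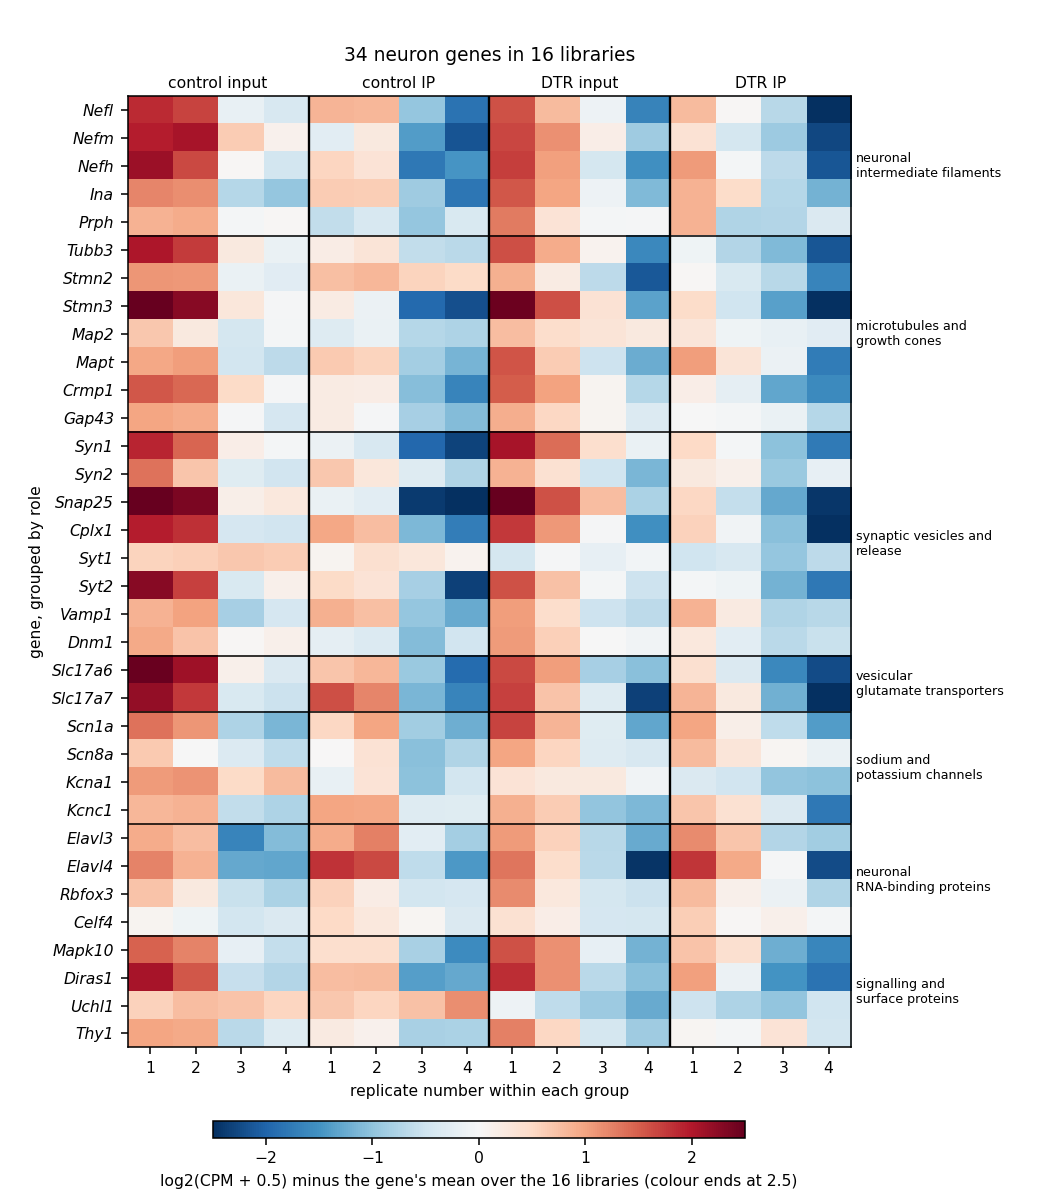
Level of each of the 34 neuron genes (rows, grouped by role) in the 16 libraries (columns, by group and replicate number), as log2(CPM + 0.5) minus the gene's own mean over the libraries. Red is above and blue below that mean. In each group most rows are redder in replicates 1 and 2 than in 3 and 4. Syt1 changes between control and DTR and little between pools. Uchl1 also changes between control and DTR, and differs by 2.20-fold between the highest and lowest DTR input.

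The members that carried the most pool-to-pool variation were found in every role. On the log2 scale the SD within groups had a median of 0.97 over the 34 members, against 0.24 over all tested genes, and 29 members lay above the 90th percentile of tested genes. The largest SDs were those of Slc17a7 and Elavl4, both 1.56, followed by Stmn3 at 1.34, Cplx1 at 1.33 and Nefl at 1.32. The smallest were Syt1 at 0.17, Celf4, an RNA-binding protein gene, at 0.28, the dendritic microtubule protein gene Map2 at 0.29, Uchl1 at 0.31 and Kcna1, the potassium channel subunit of axons, at 0.35. When the shared replicate number was taken out as a block, the median SD of the members came down to 0.30, and that of all tested genes to 0.20.

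Other cell types were checked for the same order of pools. It was held in all 4 groups by 0 of 25 tested hair cell genes, 0 of 14 supporting cell and GER genes, 1 of 15 Schwann and satellite glial genes (Egr2), and 0 of the 10 mesenchymal, 10 macrophage, 8 endothelial and 4 tested erythroid genes. Among further neuron genes outside the 34, 26 of 53 tested held it. Of the spiral ganglion identity genes 7 of 16 tested did, and that list summed to 1393, 1377, 1244 and 1184 CPM in replicates 1 to 4 of control input. The Schwann and satellite glial genes summed to 6176, 5694, 3695 and 4198 CPM in replicates 1 to 4 of control input, higher in the first pair, but to 2400.3, 1997, 2888 and 2312 CPM in DTR input, where the pairs overlapped. The part of glial content in the neuronal values was not tested.

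**Figure D2:**
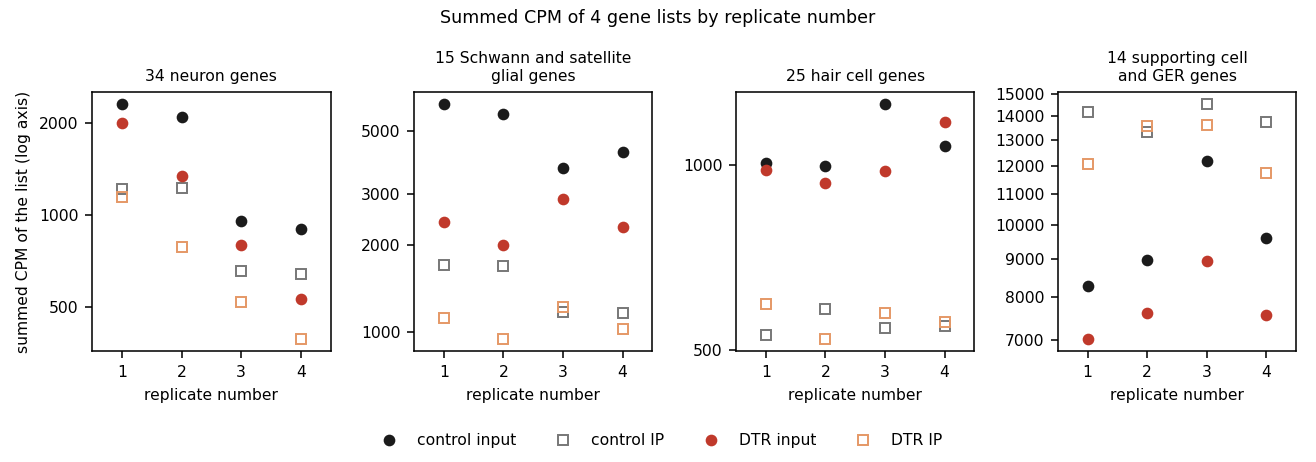
Summed CPM (log axes with different ranges) of the 34 neuron genes and of 3 lists for other cell types, by replicate number, with 1 point per library, filled for input and open for IP. The neuron genes lie higher in replicates 1 and 2 than in 3 and 4 in all 4 groups, from 2298 down to 897 CPM in control input, and the hair cell genes stay between 519 and 1255 CPM with no such split.

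The next comparison set the members' levels in the ribosome pull-down of control mice against those in the whole tissue. Most members were lower in the IP than in the input of the same pool, and the median log2 fold change (LFC) was -0.73, while it was -0.0012 over all tested genes. With limma on 4 libraries per group, 10 members were lower and 0 higher at an adjusted p under 0.05, where 20.7% and 19.3% of all tested genes were called lower and higher. An unadjusted p under 0.05 was reached by 12 members in either direction, a share of 35.3% where all tested genes gave 47.5%. The 10 lower members became 6 without the control input of replicate 1, 5 without control pool 1 and 6 without control pool 3. Input and IP came from the same homogenate, and with that pairing kept as a replicate block 22 members were lower and 3 higher, against backgrounds of 25.3% and 23.6%. The groups did not overlap for 6 members lower in the IP, Snap25, Syn1, Kcna1, Dnm1, Prph and Syt1, and for 0 higher, against 21.5% and 17.2% of tested genes. A stricter rule, which asked in addition for an absolute LFC of at least 1 and a smallest value of the higher group more than 1.5 times the largest of the lower, called 0 members in either direction, against 3.56% of tested genes lower and 4.12% higher. Under that block the standard error of a member's LFC had a median of 0.14, where without it the median was 0.57.

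Synaptic vesicle genes included the largest losses. Snap25, a membrane protein of the fusion complex, stood at 154, 132, 28.0 and 30.4 CPM in control input replicates 1 to 4 and at 22.5, 21.01, 4.41 and 3.14 CPM in control IP. Every IP library lay under every input library, and within a pool the IP held between 0.103 and 0.159 of the input level. Its LFC was -2.68 ± 0.74 (SE), with an adjusted p of 0.0073 in limma. Syn1 was measured at 45.4, 33.0, 13.3 and 11.2 CPM in input and 10.5, 8.70, 2.62 and 1.96 CPM in IP, again without overlap (LFC -2.01 ± 0.56, adjusted p = 0.0076 in limma). Syt1 gave 182, 189, 198 and 193 CPM in input and 130.3, 165, 152 and 132 CPM in IP, a small and separate difference with an LFC of -0.36 ± 0.12 (limma, adjusted p = 0.023). That call was lost without control pool 1, 3 or 4. Dnm1, the dynamin of vesicle retrieval, also fell, and Syt2 and Cplx1, a regulator of fusion, were lower with the block only, at adjusted p = 0.00015 and 1.9e-06 in limma. Syn2 and Vamp1, a v-SNARE gene, had LFCs of -0.26 and -0.29 and passed neither fit.

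Among microtubule and growth-cone genes the loss was largest for Stmn3, at 132, 112, 27.6 and 22.4 CPM in control input and 26.4, 20.5, 5.58 and 4.54 CPM in control IP. The groups overlapped because the high pools of IP reached the low pools of input, yet within each pool the IP held between 0.182 and 0.203 of the input. The LFC was -2.20 ± 0.77 (limma, adjusted p = 0.029, and 1.5e-08 with the replicate block), and the call without the block was lost without control pool 1, 2 or 3. Crmp1, a collapsin response mediator, and Map2 fell too, the latter from 89.6, 66.6, 41.4 and 54.1 CPM to 44.7, 50.2, 34.2 and 32.4 CPM (LFC -0.60 ± 0.18, adjusted p = 0.014 in limma, 0.068 without control pool 1). Tubb3, Gap43 and the tau gene Mapt were lower with the block only. Stmn2, a stathmin of growing axons, had an LFC of 0.22 and an adjusted p of 0.75 in limma. Its IP held 0.783 and 0.835 of the input in replicates 1 and 2 but 1.64 and 1.71 in replicates 3 and 4, where 71.4 and 68.2 CPM were found in the IP.

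All 5 neuronal intermediate filament genes were lower in control IP with the replicate block, and Nefm and Prph also without it, the latter not without control pool 1, 2 or 3. Nefm, the medium chain, went from 152, 163, 60.4 and 42.0 CPM to 32.2, 45.8, 14.5 and 8.30 CPM (LFC -2.05 ± 0.59, adjusted p = 0.0098 in limma). Nefl, the most abundant of the role, was at 273, 244, 66.1 and 56.2 CPM in input and 136, 133, 38.2 and 20.4 CPM in IP. Its pools ranged widely enough that the LFC of -0.97 ± 0.76 had an adjusted p of 0.34, which became 1.7e-06 in limma with the replicate block. Within a pool the IP held 0.198 to 0.281 of the input for Nefm and 0.363 to 0.578 for Nefl. The difference between these genes was not tested, and the pair overlaps on opposite strands.

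Both vesicular glutamate transporters were lower in control IP with the block. Slc17a7 read 55.3, 41.1, 8.78 and 7.81 CPM in input against 36.8, 27.9, 5.03 and 3.37 CPM in IP (LFC -0.68 ± 0.90, adjusted p = 0.58, and 0.00055 in limma with the replicate block). Of the channels, Kcna1 fell from 95.8, 99.02, 63.8 and 79.0 CPM to 39.9, 57.6, 21.9 and 32.7 CPM, with no overlap (LFC -1.18 ± 0.21, adjusted p = 0.00022 in limma). The sodium channels Scn1a and Scn8a and the potassium channel Kcnc1 passed neither fit, with LFCs of -0.20, -0.19 and 0.34.

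In control pools the neuronal RNA-binding protein genes stood apart from the other roles, since their LFCs were above 0 for 4 of 4 and none of them was lower. In DTR pools their LFCs ran from -0.11 to 0.44, and 1 was higher with the block. Without the block 0 of the 4 were called in control or DTR pools. Elavl4 was at 67.6, 52.3, 11.3 and 11.2 CPM in control input and 100.2, 89.3, 18.1 and 10.1 CPM in control IP. The IP was above the input in replicates 1 to 3 and under it in replicate 4. The LFC of 0.49 ± 0.90 had an adjusted p of 0.71, and 0.0038 in limma with the replicate block. Elavl3 and Celf4 were higher with the block as well, at adjusted p = 0.022 and 0.03 in limma, but the first call was lost without control pool 2 or 3 and the second without control pool 1, 2 or 3. Elavl4 kept its call with the block when any pool was left out. Rbfox3, the gene of the NeuN antigen, had an LFC of 0.12. Among signalling and surface genes, the kinase gene Mapk10 and the small GTPase gene Diras1 were lower with the block only. Thy1, a surface glycoprotein of neurons, had an LFC of -0.49 and passed neither fit. Uchl1 was at 122, 140.2, 133 and 118 CPM in input and 130.05, 118, 136 and 182 CPM in IP, overlapping groups with an LFC of 0.14 ± 0.19 (limma, adjusted p = 0.58).

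**Figure D3:**
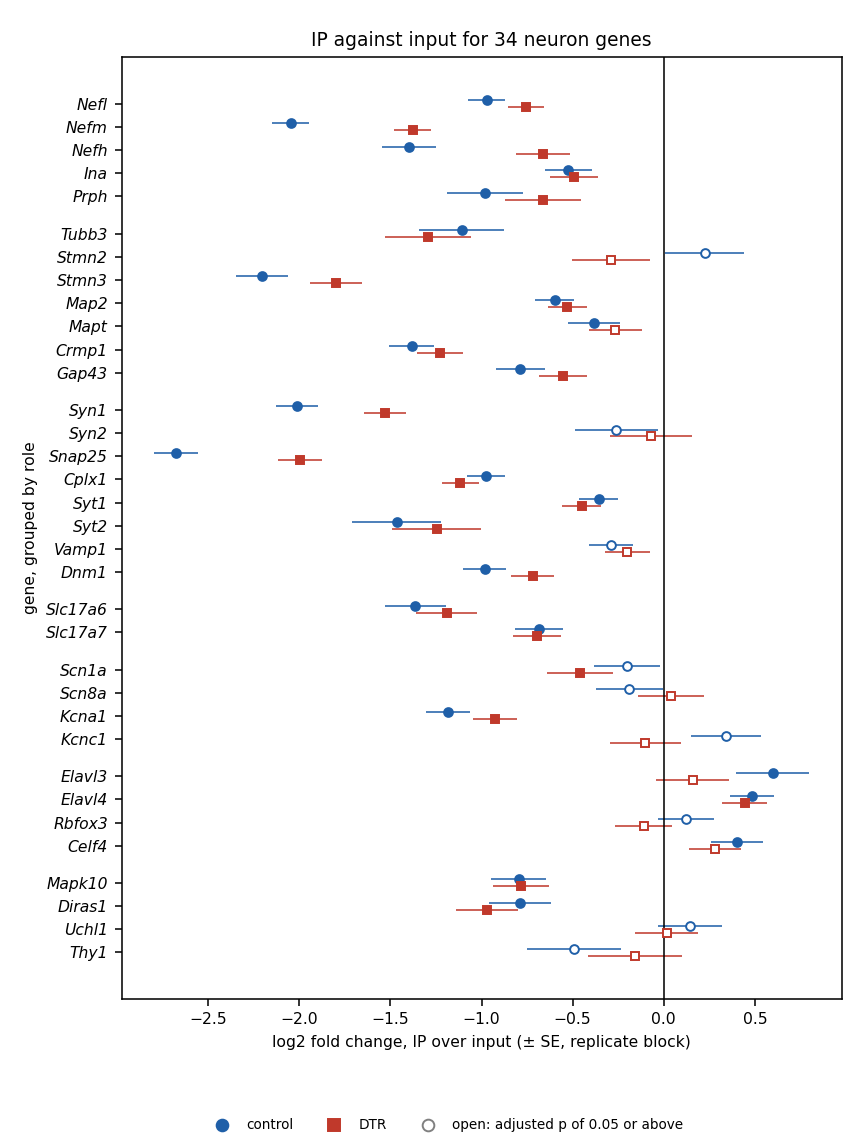
LFC of IP over input with its SE, from the fit with the replicate block, for each neuron gene in control (circles) and DTR (squares) pools, with open symbols at an adjusted p of 0.05 or above. Snap25, Stmn3, Nefm and Syn1 lie farthest to the left, from -2.68 to -2.01 in control, and Elavl3, Elavl4 and Celf4 lie to the right of 0.

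In DTR pools the IP was likewise lower than the input for most members, with a median LFC of -0.61 against -0.027 over all tested genes. There were 6 members lower and 0 higher in limma, where 20.5% and 18.6% of tested genes were called, and 10 members at an unadjusted p under 0.05 in either direction, or 29.4% where all tested genes gave 46.9%. With the replicate block 22 were lower and 1, Elavl4, higher, against 25.6% and 22.5%. The groups did not overlap for 1 member lower and 0 higher, against 16.2% and 16.7%, and the LFC and separation rule called 0 members, against 2.11% of tested genes lower and 3.67% higher. These libraries shared none with the control comparison, but both comparisons came from 1 fit to all 16 libraries. Normalization and the SE of a gene were the same in both, so the 2 lists of calls are not independent. Of the 22 members lower with the block in control and the 22 in DTR pools, 21 were in both lists, with Mapt in the first only and Scn1a in the second only. The overlap was not counted over all tested genes.

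Snap25 was at 151, 77.6, 43.6 and 14.4 CPM in DTR input and 36.4, 16.7, 10.2 and 4.27 CPM in DTR IP, where the pools overlapped (LFC -1.997 ± 0.74, adjusted p = 0.039 in limma). Syn1 read 50.4, 31.5, 15.8 and 10.4 CPM in input and 16.7, 11.3, 5.53 and 3.09 CPM in IP (LFC -1.53 ± 0.56, adjusted p = 0.037 in limma). Kcna1 was the member whose DTR IP libraries all lay under the input, with 35.4, 32.3, 22.7 and 22.1 CPM against 57.6, 53.5, 53.6 and 42.6 CPM (LFC -0.93 ± 0.21, limma adjusted p = 0.0021). Dnm1 went from 119, 86.6, 56.8 and 53.6 CPM to 68.7, 47.6, 35.8 and 38.6 CPM (LFC -0.72 ± 0.25, adjusted p = 0.031 in limma). Map2 and Syt1 completed the 6 members. Without DTR pool 2 or 3 the count of 6 came down to 2, and leaving out the DTR input of replicate 4 alone raised it to 10. The calls of Snap25, Syn1, Dnm1 and Map2 were lost without DTR pool 2 or 3 and without quantile normalization, while Kcna1 and Syt1 kept theirs under these settings.

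The same direction was seen in genes of other cell types. In control IP, 13 of 15 Schwann and satellite glial genes, 18 of 25 hair cell genes, 10 of 10 macrophage genes, 6 of 8 endothelial genes and 4 of 4 tested erythroid genes were lower in limma, with median LFCs of -1.63, -1.14, -1.83, -1.36 and -2.16. Of the mesenchymal genes 4 of 10 were lower, with a median LFC of 0.064. Of all tested genes 20.7% were called lower and 19.3% higher in control IP. Among supporting cell and GER genes 7 of 14 were higher and 3 lower, with a median LFC of 0.34, and the insulin-like growth factor gene Igf2 had the highest LFC of the list at 3.49. In DTR IP 3 of these 14 were higher and 3 lower, with a median LFC of -0.14, where 18.6% and 20.5% of tested genes were called. The part of RNA from cells other than the targeted ones in the neuronal IP values was not tested.

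The last comparisons asked whether the levels of the members differed after the loss of Lgr5-expressing cells. In whole tissue 3 members were lower and 0 higher in limma, Uchl1, Syt1 and Kcna1, where 5.21% and 7.17% of all tested genes were called lower and higher. In the IP 2 members were lower, Uchl1 and Syt1, and 0 higher, against 7.3% and 8.44%. An unadjusted p under 0.05 was reached by 3 members in input and 4 in IP, or 8.82% and 11.8% where all tested genes gave 23.2% and 28.4%. As with limma, edgeR and DESeq2 called 0 higher in both. The groups did not overlap for 3 members lower and 0 higher in input, against 7.73% and 11.6% of tested genes, and for 3 lower and 0 higher in the IP, against 6.54% and 10.5%. The members that passed were among those that varied least between pools, as their SDs above show. Uchl1 and Syt1 each held the members' order of pools in only 1 of the 4 groups. Whether the RNA of these genes came from neurons was not tested.

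Uchl1 had the largest change. It was at 122, 140.2, 133 and 118 CPM in control input and 74.1, 52.6, 43.0 and 33.6 CPM in DTR input, without overlap (LFC -1.37 ± 0.19, adjusted p = 4.9e-05 in limma). In the IP it went from 130.05, 118, 136 and 182 CPM to 56.8, 47.2, 41.0 and 57.6 CPM, also without overlap (LFC -1.50 ± 0.19, adjusted p = 1.7e-05 in limma). By the LFC and separation rule Uchl1 was the 1 member called lower in input, where 1% of tested genes were lower and 1.34% higher. It was also the 1 member called lower in the IP, against 1.34% lower and 1.12% higher, and 0 members were higher in either.

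Syt1 was at 182, 189, 198 and 193 CPM in control input and 91.3, 121, 108 and 118 CPM in DTR input (LFC -0.77 ± 0.12, adjusted p = 0.00017 in limma). In the IP it was at 130.3, 165, 152 and 132 CPM in control and 88.0, 94.0, 63.1 and 78.7 CPM in DTR pools (LFC -0.86 ± 0.12, limma adjusted p = 4.4e-05). Neither pair of groups overlapped. Uchl1 and Syt1 passed in input and IP under every alternative test and with each library or pool left out, except that the LFC and separation rule did not call Syt1. Kcna1 went from 95.8, 99.02, 63.8 and 79.0 CPM to 57.6, 53.5, 53.6 and 42.6 CPM in input (LFC -0.68 ± 0.21, adjusted p = 0.044 in limma). Its call was lost without quantile normalization (adjusted p = 0.062) and with any pool but control pool 3 left out, and its IP libraries overlapped.

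The other members could be compared only against a wide spread, since DTR and control differed unequally from pool to pool. The median over members of the DTR level over the control level of the same number was 0.975, 0.713, 1.03 and 0.612 in input replicates 1 to 4 and 1.03, 0.702, 1.16 and 0.884 in the IP. In input 30 members were under 1 in replicates 2 and 4, but 18 and 14 in replicates 1 and 3. These medians and counts were not taken over all tested genes, so they describe the members only. Of the 34 members 11 were lower in all 4 input pairs and 3 higher, against 16.4% and 20.1% of tested genes, and 7 were lower and 2 higher in all IP pairs, against 16.9% and 24.3%. Control and DTR libraries of 1 number deviated together over all genes, so the number was also used as a block. Then 10 members were lower and 0 higher in input, against 7.99% and 9.76% of tested genes. In the IP 9 were lower and 2 higher, against 11.1% and 12.2%.

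Both glutamate transporters were in these counts, in input and IP. Slc17a7 stood at 55.3, 41.1, 8.78 and 7.81 CPM in control input and 39.1, 19.5, 9.22 and 1.92 CPM in DTR input (LFC -0.84 ± 0.90, adjusted p = 0.66, and 0.014 in limma with the replicate block). In the IP its LFC was -0.85, with an adjusted p of 0.59 and of 0.011 with the replicate block in limma. Slc17a6, the other vesicular glutamate transporter, is given here after its values were seen, for the evenness of its pairs. It was at 20.2, 15.7, 3.60 and 2.41 CPM in control input and 11.3, 7.26, 1.61 and 1.31 CPM in DTR input, and DTR pools held between 0.447 and 0.556 of the control level of their number. The LFC was -0.95 ± 0.75 without and ± 0.17 with the replicate block, and the adjusted p went from 0.5 to 0.00061 in limma. It kept its call with the block when any pool was left out, in input and in IP. In input, the SE, adjusted p and refits with the block all rest on the evenness for which the gene was picked. They are no separate support for it.

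Of the filaments, Nefl, Nefm and Nefh were lower in DTR input with the block, with LFCs of -0.58, -0.66 and -0.64, of which the first was 0.035 when DTR pool 4 was left out of the fit without the block, and 0 of 5 were called in the IP. Stmn2 was lower with the block in input (LFC -0.85) and IP (LFC -1.36, adjusted p = 0.061 without and 0.0015 with the block in limma). Its control IP libraries, at 82.5, 86.5, 71.4 and 68.2 CPM, lay above all DTR IP libraries, at 49.9, 37.2, 30.1 and 15.1 CPM. Crmp1 was called with the block in input only, and Tubb3, Cplx1 and Kcnc1 in the IP only. Kcna1 was called in both. The members higher in DTR IP with the block were Syn1 (LFC 0.52, adjusted p = 0.0055) and Map2 (LFC 0.40, adjusted p = 0.017), both by limma. Map2 was at 44.7, 50.2, 34.2 and 32.4 CPM in control IP and 69.6, 52.2, 49.3 and 46.2 CPM in DTR IP, above its number's control in 4 of 4 pairs. None of the 4 RNA-binding protein genes was called in either comparison.

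The counts with the block depended on single pools. In input the 10 lower members became 5 without control pool 2, DTR pool 2 or control pool 4, and 4 without DTR pool 4. Without control pool 3 they became 14. In the IP the 9 lower members became 5 without control pool 4 and 6 without DTR pool 2 or 4. The higher members in the IP, 2 with all pools, became 1 without control pool 1, DTR pool 1 or DTR pool 3, where the call of Map2 was lost.

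**Figure D4:**
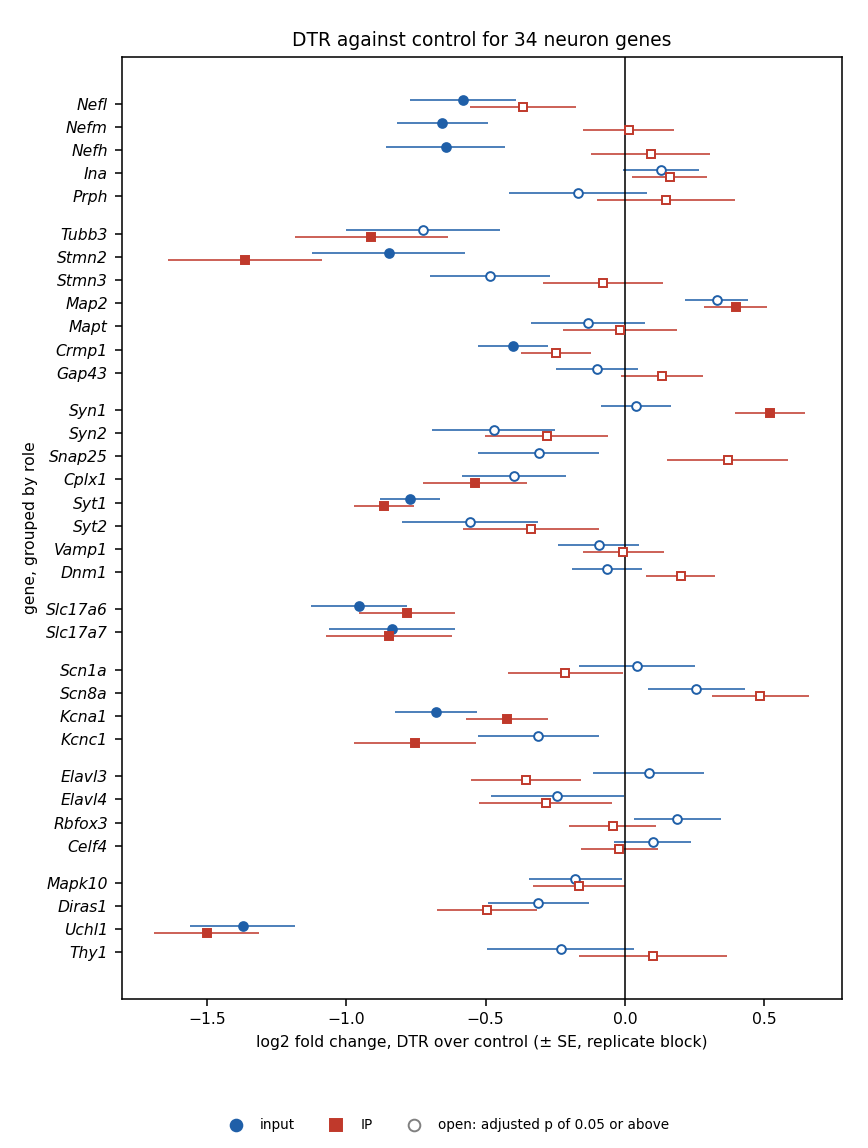
LFC of DTR over control with its SE, from the fit with the replicate block, for each neuron gene in input (circles) and IP (squares), with open symbols at an adjusted p of 0.05 or above. Uchl1 lies farthest to the left at -1.37 and -1.50, the 6 members lower in both sample types also include Stmn2, Slc17a6, Slc17a7, Syt1 and Kcna1, and Syn1 and Map2 lie to the right in the IP.

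Schwann cell and satellite glial genes were lower in DTR input than in control input. There 9 of 15 were lower in limma and 12 of 15 with the block, the myelin basic protein gene Mbp at an LFC of -1.37, and the sum of the list was 1997 to 2888 CPM in DTR and 3695 to 6176 CPM in control. In the IP 2 of 15 were lower and 1 higher, and 6 lower and 1 higher with the block, with a median LFC of -0.24. Of the supporting cell and GER genes 9 of 14 were lower in input and 11 of 14 in the IP. Of the macrophage genes 7 of 10 were higher in input and 6 of 10 in the IP. Of the mesenchymal genes 1 of 10 was higher in input and 6 of 10 in the IP, where their sum was 8318 to 12021 CPM in control and 11985 to 16637 CPM in DTR pools. In input the hair cell genes were called higher for 2 and lower for 2 of 25. Of all tested genes, limma called 5.21% lower and 7.17% higher in input, and 7.3% lower and 8.44% higher in the IP. With the block it called 7.99% lower in input, and 11.1% lower and 12.2% higher in the IP. The part of these cell types in the neuronal values was not tested.

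The difference between IP and input in their response to damage was tested as an interaction. It was called for 0 of 34 members with limma, without and with the replicate block, where 0% and 0.0118% of tested genes were called higher and lower without it and 0.0883% and 0.147% with it. By edgeR and DESeq2 there were also 0. At an unadjusted p under 0.05 there were 0 members without the block and 870 of all tested genes. The lowest adjusted p with the block was 0.076, for Nefm, whose IP changed by 0.67 on the log2 scale relative to its input.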

How the data were processed

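RNA of input and IP from 8 pools was sequenced from SMART-Seq v4 libraries, 4 libraries per group. The authors aligned reads to GRCm38 with HISAT2 (version 2.0.4) and counted them with HTSeq according to the paper, whereas the submitters' processing notes list TopHat. The annotation release and the strand setting are not given in the sources used here. The deposited values are CPM per gene, of which at least 99.996% were whole multiples of 1 read (tolerance 0.01), so reads were recovered for the count tools. Of 50316 genes listed, 2587 had no value.

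CPM were quantile normalized and taken as log2(CPM + 0.5). LFCs are on that scale and understate the change of low genes. Fits covered the 16994 genes that reached 0.5 CPM in each library of at least 1 group. They were made with limma (version 3.58.1, R 4.3.3) on group means with a mean-variance trend, two-sided tests and Benjamini-Hochberg adjustment over all tested genes. The fit without the block was also run on simulated counts, with the same dispersion setting for every gene and no differences between pools. That run therefore does not cover the block, or genes that vary between pools as the members do. A gene was called at an adjusted p under 0.05. The alternatives were CPM without quantile normalization or centred on the library median, pseudocounts of 0.1 and 1, no filter or at least 2 CPM, the compared groups alone, edgeR (version 4.0.16) and DESeq2 (version 1.42.0) on the recovered reads, a rule that adds an absolute LFC of at least 1 and a separation above 1.5 with values under 1.08 CPM raised to that floor (the study's criteria for DTR against control IP, applied here to every comparison of 2 groups, though the study set a higher ratio for IP over input), a replicate block, and each library or pool left out.

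The number in the labels pairs IP with input, as both come from 1 homogenate. The libraries titled 4 carry the number 6 in their deposited file names, alike in all 4 groups, and the titles were used. No source says that control and DTR pools of 1 number were handled together. The check used the correlation, over all genes, of deviations from the group means. It was 0.288 to 0.559 for the 16 pairs of libraries of the same number, so the number was treated as pairing (limit 0.1). For other numbers it was on average -0.203 to -0.064. Deviations cancel out within a group, so positive values for the same number force negative averages for the others. Those averages are therefore no separate evidence of pairing. The block was the pool for IP against input and for the interaction, and the number for DTR against control.

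Any of the 34 members could be named, with full values for the called members of largest LFC (up to 4 per direction) and the most abundant member of each role. Further lists were other neuron genes (54), spiral ganglion identity genes (18) and genes of hair cells, Schwann and satellite glia, supporting cells and GER, mesenchyme, macrophages, endothelium and erythroid cells. Members, roles and lists were chosen with earlier results of these data known. Gene positions and lengths came from GENCODE M21, promoters from RefSeq (GRCm38.p6). The worth of 3 reads covers counting error only. Nothing in the sources shows that pools of a group came from separate litters. Without a block, p-values measure the spread between libraries of a group, and input and IP of the same pool are treated as independent. With the pool as block, they measure how far the difference between IP and input varies from pool to pool. With the number as block, they measure the spread left after differences between numbers are taken out, and input and IP are again treated as independent.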

Additional observations from a re-analysis of the deposited data

Results flagged for a closer look

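Of 136 sets of 4 libraries (34 members in 4 groups), 1 held a library far from the others. Prph, the peripherin gene, was at 2.22 CPM in DTR IP replicate 1 and between 0.392 and 0.658 CPM in the other DTR IP libraries, a gap of 0.854 of the whole range, above Dixon's 95% limit for 4 values. Chance alone flags about 1 in 20 such sets. Without that library the DTR comparison called Prph lower in the IP, at an adjusted p of 0.012 in limma, and with it the adjusted p was 0.13.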

How the results depend on the processing

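No change called with all libraries in the fit without the block reversed under the alternatives run. Among changes called with the block only, 9 refits without the block that left out a library or pool gave an LFC of the other sign, 0 of them past the threshold, for Elavl4 and Scn1a (DTR IP against input), Nefl and Crmp1 (DTR against control input) and Cplx1 (DTR against control IP). The replicate block changed most calls. With it the members higher and lower became 3 and 22 for control IP against input (0 and 10 without), 1 and 22 for DTR IP against input (0 and 6), 0 and 10 for DTR against control input (0 and 3) and 2 and 9 for DTR against control IP (0 and 2). An edgeR fit with the same replicate block, added after the data were seen, gave 3 and 22, 1 and 22, 0 and 9, and 3 and 8. The smaller SE under the pairing comes from its construction, which removes differences between pools. The LFC and separation rule left 0 lower members in both IP comparisons and 1 in each DTR comparison. In DTR IP against input, 2 members were lower without quantile normalization and 2 without the filter on low values, where the main count was 6; the cause was not tested. Scaling moved the median gene by under 0.1 on the log2 scale.

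With single libraries or whole pools left out (pools added after the data were seen), the lower members ranged from 5 to 12 in control IP against input, 2 to 10 in DTR IP against input, 2 to 3 in DTR against control input and 2 to 3 in DTR against control IP, with 0 higher throughout. Control pool 1 gave the 5 and control pool 3 gave 6, and leaving out the DTR input of replicate 1 gave 11. With the replicate block and a pool left out, the lower ranged over 20 to 22, 20 to 23, 4 to 14 and 5 to 10 in the same order, with 21 in many of the IP comparisons and 7 in DTR against control IP without control pool 2, and the higher over 1 to 3, 1 to 2, 0 to 1 and 1 to 3. For the 69 changes of single members followed, 2962 refits gave 2416 on the same side of the threshold, 454 newly past it and 92 no longer past it. With 4 pools per group, a member with the median SE of 0.57 could be called only at a large LFC.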

Other observations

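Among neuron genes outside the 34, 21 of 53 tested were lower and 2 higher in control IP against input in limma, where 20.7% and 19.3% of all tested genes were. Cntn1, a cell adhesion gene, fell from 145 ± 13 to 26.6 ± 3.7 CPM (SD, n = 4; LFC -2.40, adjusted p = 2.6e-10 in limma) and did not follow the order of the pools in 3 of the 4 groups. Bsn, which codes for the active zone protein bassoon, was higher in the IP of control and DTR pools, with LFCs of 0.73 and 1.53. After damage 2 of the 53 were higher and 3 lower in input, and 5 and 4 in the IP, against 7.17% and 5.21% of all tested genes in input and 8.44% and 7.3% in the IP. Stmn4, a stathmin related to the members Stmn2 and Stmn3, rose from 8.96 ± 7.36 to 69.3 ± 24.6 CPM in input and from 2.22 ± 1.55 to 45.6 ± 8.8 CPM in the IP (LFC 3.20 and 4.12, adjusted p = 6.8e-05 and 3.3e-06 in limma). The reticulon gene Rtn1 fell from 218 ± 39 to 90.9 ± 57.2 CPM in input and from 158 ± 25 to 39.3 ± 20.1 CPM in the IP (LFC -1.42 and -2.18, adjusted p = 0.011 and 0.00023 in limma).

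Of 16 tested spiral ganglion identity genes, 3 were higher and 7 lower in control IP, against the 19.3% and 20.7% given above. Isl1, a transcription factor of neurons that is also found in the sensory epithelium, was at 274 ± 40 CPM in control input and 998 ± 201 CPM in control IP (LFC 1.91, adjusted p = 1.9e-08 in limma). Calb2, the calretinin gene, was lower in the IP (LFC -1.79, adjusted p = 0.00064 in limma). After damage 5 of the 16 were lower in input and 4 in the IP, against 5.21% and 7.3% of all tested genes. In either, 0 were higher, against 7.17% in input and 8.44% in the IP. Prox1, a homeobox gene of neurons and supporting cells, fell from 31.4 ± 6.7 to 7.49 ± 5.31 CPM in input (LFC -2.27, adjusted p = 0.0052 in limma), and Gata3 fell in input and IP (LFC -0.60 and -0.82).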
